A study of Homo sapiens with 120 samples.

Results

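The comparison described here is that of 2 HEK293T lines, 1 labelled PACT knock-out and 1 labelled Parental, by small RNA sequencing of total RNA and of RNA bound to Argonaute (Ago) proteins. It rests on 24 of the 120 libraries of the series, chosen as the columns of experiment 1 whose line is exactly PACT knock-out or Parental. HEK293T is a human embryonic kidney line. All groups share 1 deletion: every line, Parental included, is derived from cells labelled pOSI17 PKR knock-out, and so lacks PKR, a kinase activated by double-stranded RNA (dsRNA). Cells were transfected with Lipofectamine 3000 and received no dsRNA (mock) or 1 of 2 long dsRNAs labelled dsGFPc and dsGFPd. Each combination of line, transfection and fraction has 2 libraries, which gives 6 PACT knockout and 6 parental libraries in total RNA and 6 against 6 in the Ago pulldown, an affinity purification of Ago proteins with a peptide. The TRBP knockout and the PACT and TRBP double knockout of the same experiment were used for 1 further comparison, again with 6 libraries per line and fraction.

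Dicer cuts hairpin precursors into miRNA duplexes, and 1 strand of the duplex is then held by an Ago protein. PACT (gene PRKRA) and TRBP (gene TARBP2) are related dsRNA-binding proteins that bind the same surface of Dicer. They are known to influence where Dicer cuts and which strand is kept, and PACT is also known as an activator of PKR, which these cells lack.

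Each label stands for a single line, so an effect of the knockout and any other feature in which 2 lines differ cannot be told apart. Nothing in the labels tells if the 2 replicates of a group were grown apart, so the p-values rest on library-to-library spread, which may be technical. Small RNA libraries do not measure the PACT mRNA or protein, so the knockout itself was not checked here. In total RNA the parental libraries held 406531 to 772896 miRNA reads and the PACT knockout libraries 439126 to 868297. The pulldown libraries were deeper, with 3637502 to 6357296 and 3059773 to 6501565. Values are the authors' normalised counts. A single read was worth 0.838 to 2.01 units in a total RNA library and 0.122 to 0.279 in a pulldown library. All 7 miRNAs taken as typical of HEK293T, among them miR-10a-5p, miR-10b-5p and miR-92a-3p, had reads in both lines and fractions, with summed values of 251217 to 369543 per library. Of 18 markers of other cell types, 10 to 13 had reads in a line and fraction. The 5 to 8 without a read include the blood marker miR-223-3p and the pluripotency markers miR-302a-3p, miR-367-3p and miR-371a-3p. Markers with reads in every library of both lines include miR-375-3p, miR-126-3p, miR-143-3p, miR-200c-3p and miR-1-3p. In mock total RNA miR-375-3p had 747 and 683 reads in parental and 714 and 922 in PACT knockout libraries. The blood marker miR-142-5p had at most 2 reads in a parental and 8 in a PACT knockout library of total RNA. The summed value of the 18 markers was 985 to 1114 in parental and 1026 to 1314 in PACT knockout total RNA. In pulldown it was 1951 to 2727 and 2298 to 3162. Of those with reads enough to be tested, 5 of 6 were above 0 in the PACT knockout in total RNA (median log2 change 0.26, against -0.01 for all miRNAs) and 9 of 10 in pulldown (median 0.10, against -0.03), with 0 called. Their part in the results below was not tested. In a library of bulk RNA, fewer cells with a miRNA and less of it per cell cannot be told apart.

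The mature sequences of the miRNAs that carry the results are shown first, from RefSeq (GRCh38.p14), written 5′ to 3′ with the seed, bases 2 to 8, in capitals. RefSeq sequences were found for 19 of 22 miRNAs looked up. The seed sets which mRNAs a miRNA pairs with, so miRNAs with 1 seed are grouped. The first group is miR-34a-5p, which was higher in the PACT knockout, with its family.
miR-34a-5p: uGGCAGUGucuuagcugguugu
miR-449a: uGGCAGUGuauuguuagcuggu
miR-449b-5p: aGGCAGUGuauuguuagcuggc
The other miRNA that was higher has its own seed.
miR-31-5p: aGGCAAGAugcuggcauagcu
The miR-181 family shares 1 seed on its 5p arms, and miR-181c-5p differs from miR-181a-5p by 1 base, whereas miR-181d-5p differs from miR-181b-5p by 1 base. Only the hairpin of miR-181c gave called miRNAs, on both of its arms.
miR-181c-5p: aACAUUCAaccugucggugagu
miR-181a-5p: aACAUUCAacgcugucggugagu
miR-181b-5p: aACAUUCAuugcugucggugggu
miR-181d-5p: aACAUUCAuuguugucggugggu
miR-181c-3p: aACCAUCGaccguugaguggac
The 3p arms of miR-221 and miR-222 also share a seed, and the opposite arm of miR-222 is given with them.
miR-221-3p: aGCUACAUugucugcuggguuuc
miR-222-3p: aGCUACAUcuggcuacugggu
miR-222-5p: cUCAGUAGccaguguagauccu
Further miRNAs turned on below are miR-10a-5p, let-7b-5p, miR-196a-1-3p and 3 that rose with dsRNA.
miR-10a-5p: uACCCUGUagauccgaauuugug
let-7b-5p: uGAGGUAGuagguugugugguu
miR-196a-1-3p: cAACAACAuuaaaccacccga
miR-10399-3p: cUCUCGGAcaagcuguagguc
miR-3614-5p: cCACUUGGaucugaaggcugccc
miR-6891-5p: uAAGGAGGgggaugagggg

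The hairpins lie apart in the genome (RefSeq, GRCh38.p14). The hairpin of miR-34a is at chr1:9151668-9151777 (minus strand) and that of miR-31 at chr9:21512115-21512185 (minus strand), both outside the span of any protein-coding gene. The hairpins of miR-181c and miR-181d are neighbours at chr19:13874699-13874808 and chr19:13874875-13875011 (plus strand), within the span of NANOS3. The miR-181a-5p and miR-181b-5p sequences come from other loci, on chromosomes 1 and 9. The hairpins of miR-221 and miR-222 are neighbours at chrX:45746157-45746266 and chrX:45747015-45747124 (minus strand), outside protein-coding genes. The table used gives gene spans and not their exons.

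In total RNA, loss of PACT went with few differences. Of 422 miRNAs tested, 2 were higher (0.474%) and 4 lower (0.948%) in the PACT knockout at a limma adjusted p under 0.05, together 1.42% of those tested (40 had an unadjusted p under 0.05). The 2 that were higher are miR-31-5p and miR-34a-5p, and the 4 that were lower are both arms of miR-181c, miR-221-5p and miR-10b-5p. edgeR's quasi-likelihood test on the recovered reads called 2 higher and 5 lower, and DESeq2 3 and 5. With columns scaled to the same sum, 7 were higher and 3 lower, a setting under which the median over all miRNAs is 0.07 rather than -0.01. Of all 422, 307 (72.7%) had a 95% interval within 1 log2 unit of 0. This held for 209 of the 211 with the higher levels and for 98 of the 211 with the lower levels (46.4%). Among those with the higher levels the change of 1 miRNA, miR-34a-5p, was itself over 1 log2 unit. Fold changes are differences of log2(normalised count + 1), each with the standard error (SE) of the fit.

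miR-31-5p, from a locus next to the CDKN2A tumour suppressor region that is often lost in cancers, was the only miRNA whose PACT knockout libraries all lay above the parental ones, which is 0.237% of the miRNAs tested. Its normalised counts were 161 and 165 in mock, 154 and 224 with dsGFPc and 139.8 and 201 with dsGFPd in the parental line. In the PACT knockout they were 262 and 267 in mock, 255 and 281.5 with dsGFPc and 237.5 and 303 with dsGFPd. The log2 change was 0.63 (SE 0.13, limma adjusted p = 0.0146). Within the transfections it was 0.69 in mock, 0.53 with dsGFPc and 0.67 with dsGFPd. The opposite arm, miR-31-3p, had a normalised count of at most 7.545 in any of these libraries and was not tested.

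miR-34a-5p, a transcriptional target of p53, showed the largest change among the called miRNAs. Its normalised count was lowest at 134, with a median of 215 and a highest value of 473, in the parental libraries, and 327, 472 and 726 in the PACT knockout. The groups overlapped through a single parental library, dsGFPd replicate 2, at 473, which lay above 3 PACT knockout libraries. The log2 change was 1.08 (SE 0.24, limma adjusted p = 0.0195), and it was 1.06 in mock, 1.12 with dsGFPc and 1.05 with dsGFPd. In both lines the libraries with dsGFPd were above those with mock. The call was made in 8 of the 12 fits that left out 1 library. Without parental mock replicate 1, parental dsGFPd replicate 1, PACT knockout mock replicate 2 or PACT knockout dsGFPc replicate 2, the limma adjusted p was 0.0505, 0.0577, 0.0683 and 0.0594. The count of 6 called miRNAs was 2 without any 1 of the last 3 of these libraries.

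In total RNA all 4 measured members of the miR-34 and miR-449 list of 11 had changes above 0, with 1 that rose (0.474% of all miRNAs did) and a median of 0.39, against -0.01 for all miRNAs. The list was chosen around the called miR-34a-5p, so 1 call in it was given in advance. In pulldown 8 were measured, 4 above and 4 below 0, with 0 called and a median of 0.07 (6 and 2 under quantile normalization, 5 and 3 with columns scaled to the same sum). miR-449a, with the same seed as miR-34a-5p, had a median normalised count of 54.35 in parental and 59.8 in PACT knockout libraries (log2 change 0.24, SE 0.22). miR-34c-5p had 21.4 and 35.2 (log2 change 0.54, SE 0.48). Neither was called, and both groups overlapped.

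**Figure D1:**
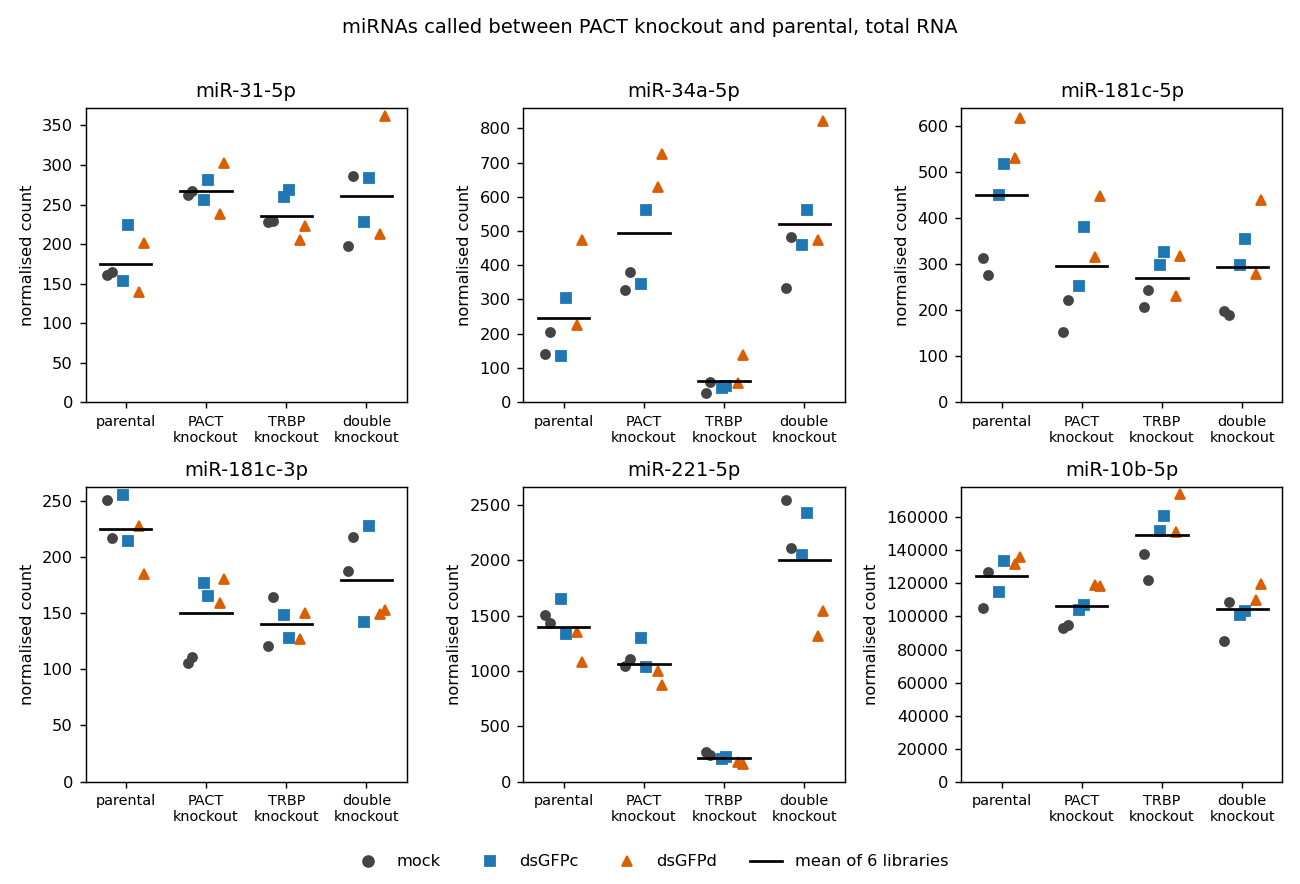
Normalised counts (vertical axes, from 0) of the 6 miRNAs called between PACT knockout and parental in total RNA, for each library of the 4 lines of experiment 1, with a bar at the mean of the 6 libraries of a line. The PACT knockout libraries of miR-31-5p lie between 237.5 and 303, above all parental ones, those of miR-181c-3p lie below all parental ones, and miR-34a-5p and miR-221-5p are low in the TRBP knockout.

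Both arms of miR-181c fell. miR-181c-3p was the only miRNA whose PACT knockout libraries all lay below the parental ones (0.237% of those tested). Its normalised counts were 251 and 217 in mock, 255 and 214.5 with dsGFPc and 228 and 185 with dsGFPd in the parental line. In the PACT knockout they were 105.7 and 111 in mock, 177 and 165.5 with dsGFPc and 159 and 180.5 with dsGFPd, so that the mock libraries stood lowest. The log2 change was -0.61 (SE 0.15, limma adjusted p = 0.0196). The call was made in 6 of 12 fits without 1 library. It was lost without replicate 1 of any parental transfection, either PACT knockout mock library, or PACT knockout dsGFPc replicate 2, at limma adjusted p values of 0.0513 to 0.0832. Within mock alone, miR-181c-3p was the 1 miRNA called (0.237% of 422, log2 change -1.10, limma adjusted p = 0.0270). With dsGFPc and dsGFPd its changes were -0.45 and -0.28, and neither was called.

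miR-181c-5p, the arm with the family seed, had a lowest, median and highest normalised count of 277, 485 and 618 in parental libraries and 154, 284 and 448.5 in the PACT knockout. The groups overlapped, and dsRNA libraries were higher than mock in both lines. The call was made in all 12 fits without 1 library, as was that of miR-31-5p. Within each transfection both PACT knockout libraries were below both parental ones: 154 and 222.2 against 313 and 277 in mock, 253 and 380.3 against 452 and 517.5 with dsGFPc, and 316 and 448.5 against 531 and 618 with dsGFPd. How many of all miRNAs show this pattern was not counted. The log2 change was -0.64 (SE 0.14, limma adjusted p = 0.0161), with -0.67, -0.64 and -0.60 in the 3 transfections.

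The other members of the family, which is known for tuning T cell receptor signalling, were not called. miR-181d-5p, the cluster neighbour of miR-181c, had medians of 1404 and 1135 (log2 change -0.29, SE 0.09, limma adjusted p = 0.208). miR-181a-5p, 1 base away from miR-181c-5p, had medians of 5840 and 6088 (log2 change -0.01, 95% interval -0.19 to 0.18). miR-181b-5p had medians of 4942 and 5274 (log2 change 0.10, 95% interval -0.05 to 0.25). The passenger arm miR-181a-2-3p was at 0.32 (limma adjusted p = 0.231), and with columns scaled to the same sum at 0.40, where it was called (limma adjusted p = 0.0180). Of 8 measured members of 10 in total RNA, 2 fell and 0 rose, where 0.948% of all miRNAs fell and 0.474% rose, and the median was -0.07 (0.01 with columns scaled to the same sum). The family was listed because miR-181c was called, so its calls were given in advance. How reads that fit both miR-181a-5p and miR-181c-5p were assigned is not given in the sources used here, which bears on the 5p arms and not on miR-181c-3p.

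miR-221 and miR-222, oncogenic miRNAs known to repress the cell cycle inhibitor p27, had lower values, and 1 of their 4 arms was called. miR-221-5p had a lowest, median and highest normalised count of 1081, 1392 and 1654 in parental libraries and 869, 1042 and 1301 in the PACT knockout. The ranges overlapped through 1 parental library, dsGFPd replicate 2, which lay below the PACT knockout libraries mock replicate 2 (1107) and dsGFPc replicate 1 (1301). The log2 change was -0.39 (SE 0.09, limma adjusted p = 0.0196), with -0.45, -0.36 and -0.37 in the 3 transfections. Under quantile normalization it was -0.30 (limma adjusted p = 0.212), and with columns scaled to the same sum -0.31 (limma adjusted p = 0.0858). The call was made in 7 of 12 fits without 1 library. It was lost without parental dsGFPc or dsGFPd replicate 1, PACT knockout mock replicate 1 or 2, or PACT knockout dsGFPc replicate 2, at limma adjusted p values of 0.0757 to 0.0863.

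The more abundant arm, miR-221-3p, had 15615 to 17853 in parental and 11857 to 15949 in PACT knockout libraries, with 1 PACT knockout library inside the parental range. Its log2 change of -0.25 (SE 0.07) was not called by limma (adjusted p = 0.123) and was called by edgeR (-0.26, adjusted p = 0.0211) and DESeq2 (-0.25, adjusted p = 0.0251). miR-222-3p was at -0.30 (limma adjusted p = 0.225) and miR-222-5p at -0.28 (limma adjusted p = 0.734). In total RNA all 4 arms were below 0 under the deposited scaling, quantile normalization and scaling to the same sum, with 1 that fell, where 0.948% of all miRNAs fell. These arms were listed because miR-221-5p was called, so 1 call among them was given in advance. In pulldown 2 were above and 2 below 0 (1 and 3 under quantile normalization), with 0 called and a median of -0.04.

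miR-10b-5p, from the HOXD cluster, is the most abundant of the called miRNAs. Its normalised counts ran from 105357 over a median of 129529 to 136013 in parental libraries and from 93190 over 105530 to 119229 in the PACT knockout. The groups overlapped. In each transfection both PACT knockout libraries were below both parental ones, and the share of all miRNAs with this pattern was not counted. The log2 change was -0.23 (SE 0.06, limma adjusted p = 0.0196). Quantile normalization gave a change of 0 for it, since that method sets equal ranks to equal values. The call was made in 5 of 12 fits without 1 library. It was lost without parental mock replicate 2, dsGFPc replicate 2 or dsGFPd replicate 1, and without any 1 of the mock and dsGFPc libraries of the PACT knockout, at limma adjusted p values of 0.0541 to 0.0916. Its paralog miR-10a-5p, from the HOXB cluster, had medians of 77317 and 70488 and a log2 change of -0.11 (SE 0.05, limma adjusted p = 0.468). Of 12 measured members of the list of miR-10, miR-99, miR-100 and miR-125 miRNAs, 1 fell and 0 rose in total RNA, where 0.948% of all miRNAs fell and 0.474% rose, with a median of -0.01. This list was chosen around the called miR-10b-5p, so its 1 call was given in advance.

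**Figure D2:**
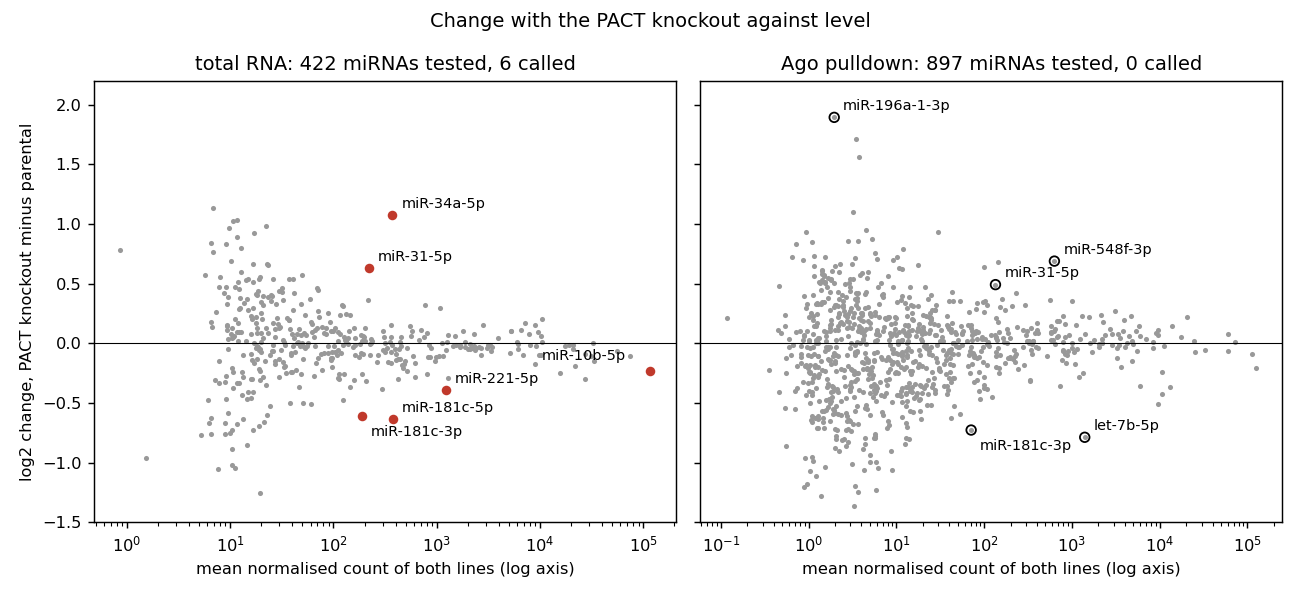
Log2 change of PACT knockout against parental (vertical axis) over the mean normalised count of both lines (horizontal log axis), with 1 point for each miRNA tested and called miRNAs in red. In total RNA 6 of 422 points are red, and in the Ago pulldown, where open circles mark named miRNAs, 0 of 897 are.

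In the Ago pulldown, which shows the miRNAs loaded into Ago proteins, 0 of 897 miRNAs passed the limma threshold (0% called, 31 with an unadjusted p under 0.05). edgeR called 0, and DESeq2 called 2 higher and 1 lower: miR-196a-1-3p, miR-4753-5p and let-7b-5p. The intervals were wider than in total RNA, and 380 of 897 (42.4%) lay within 1 log2 unit of 0, so a p that missed the threshold does not show that levels were alike. All 6 miRNAs called in total RNA were measured in the pulldown. Their changes had the same sign there, except that miR-10b-5p was at 0.12 under quantile normalization and miR-221-5p lost its sign in 3 of 12 fits without 1 library. Within pulldown, 5 of the 6 kept the same sign in all transfections. The share of all miRNAs with like signs in both fractions was not counted. miR-31-5p had a median of 124 in parental and 137 in PACT knockout pulldown (log2 change 0.49, 95% interval -0.01 to 1.00). miR-181c-3p had 93.6 and 50.95 (-0.73, 95% interval -1.28 to -0.17) and miR-181c-5p 113 and 80.8 (-0.47, 95% interval -0.93 to -0.0031). miR-34a-5p had 54.15 and 71.1 (0.26, 95% interval -0.41 to 0.94), miR-221-5p was at -0.09 and miR-10b-5p at -0.21. The smallest limma adjusted p among the 6 was 0.974.

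None of the miRNAs of smallest p in pulldown passed the limma threshold. let-7b-5p, a member of the let-7 family that represses growth genes such as HMGA2, had pulldown counts of 2164 and 2632 in mock, 1110 and 1723 with dsGFPc and 1120 and 2037 with dsGFPd in the parental line. In the PACT knockout they were 965 and 1303 in mock, 1010 and 789.6 with dsGFPc and 875 and 1065 with dsGFPd. The groups overlapped only in that 1 PACT knockout library, at 1303, lay above 2 parental ones. Its log2 change was -0.79 (SE 0.19, limma adjusted p = 0.135), against -0.26 in total RNA (limma adjusted p = 0.396). Without parental dsGFPd replicate 1 the pulldown value was -0.92 and passed (limma adjusted p = 0.0437). Of the 9 let-7 miRNAs, 8 were below 0 in pulldown (6 with columns scaled to the same sum), with 0 called and a median of -0.28 against -0.03 for all miRNAs. In total RNA the let-7 median was -0.03, with 6 below 0 (3 under quantile normalization, 1 with columns scaled to the same sum, where let-7c-5p was called higher at 0.24, limma adjusted p = 0.0489).

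miR-196a-1-3p, a passenger arm from the HOXB cluster, reached the 10 reads of the filter only in PACT knockout and double knockout pulldown libraries, 5 of each. It was therefore measured only through the lines in which it was higher, and its values are a description. It had no read in 5 of 6 parental pulldown libraries and 0.1225 in the other, and none in any TRBP knockout library of either fraction. In the PACT knockout pulldown it had 11.6 and 2.28 in mock, 2.72 and 3.47 with dsGFPc and 0 and 3.34 with dsGFPd. In the double knockout pulldown it had 3.91 and 2.02 in mock, 4.46 and 5.485 with dsGFPc and 2.84 and 0 with dsGFPd. The fitted log2 change against parental was 1.90 (limma adjusted p = 0.135). This value depends on the 1 added before the log, since nearly all parental libraries are at 0.

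Others of small p are given by their values. miR-548f-3p, of a family with many primate copies, had medians of 475 in parental and 824 in PACT knockout pulldown (log2 change 0.69, limma adjusted p = 0.206) and 359 and 368 in total RNA. miR-3944-3p was at 0.93 and miR-6806-3p at -1.28 (limma adjusted p = 0.206 for both). miR-3929 was the 1 miRNA of 897 with all PACT knockout pulldown libraries above the parental ones (0.111%), at 4.26 to 8.70 against 0 to 2.58. No miRNA had all of them below.

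**Figure D3:**
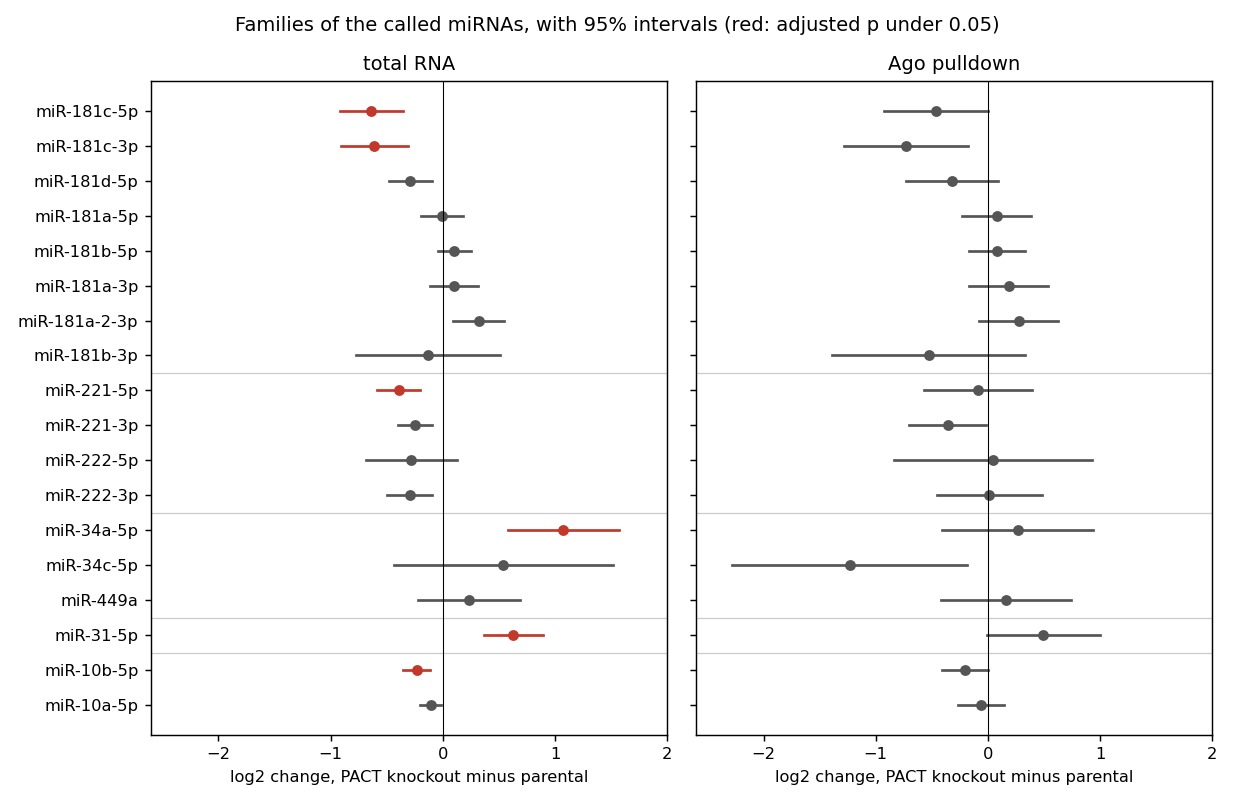
Log2 change of PACT knockout against parental (horizontal axis) with 95% intervals for selected measured members of the families of the called miRNAs, in total RNA and Ago pulldown. Among those not drawn are miR-449c-5p and the miR-99 and miR-125 miRNAs. In total RNA miR-181c-5p and miR-181c-3p lie at -0.64 and -0.61, whereas miR-181a-5p and miR-181b-5p lie at -0.01 and 0.10.

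The PACT contrast was also taken within each transfection, with 2 libraries against 2. Apart from miR-181c-3p in mock, 0 miRNAs were called in total RNA (20, 24 and 35 with an unadjusted p under 0.05 in mock, dsGFPc and dsGFPd) or in pulldown (63, 44 and 26). The smallest adjusted p in pulldown was that of miR-365b-5p with dsGFPc (log2 change 1.46, limma adjusted p = 0.0728).

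The ratio of pulldown to total RNA asks whether loading into Ago proteins changed beyond the level. It was called for 0 of 915 miRNAs (0%; 36 with an unadjusted p under 0.05). edgeR and DESeq2 each called 1, miR-19b-1-5p, a passenger arm of the miR-17~92 cluster. Among the 6 miRNAs called in total RNA the change of the log2 ratio was -0.14 for miR-31-5p, 0.17 for miR-181c-5p, -0.12 for miR-181c-3p, 0.31 for miR-221-5p and 0.03 for miR-10b-5p. For miR-34a-5p it was -0.81 (SE 0.42, 95% interval -1.66 to 0.04). let-7b-5p was at -0.53 (limma adjusted p = 0.993). Here 23.4% of intervals lay within 1 log2 unit of 0, fewer than for the levels in either fraction.

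The choice between the 5p and 3p arm of a hairpin, which Dicer partners are reported to affect, was called for 0 of 101 hairpins in total RNA (0%; 2 with an unadjusted p under 0.05) and 0 of 220 in pulldown (0%; 1). The more abundant arm was the same in both lines for 97 of 101 and 214 of 220 hairpins. For miR-181c the log2 ratio of 5p to 3p was 0.95 in parental and 0.92 in PACT knockout total RNA (difference -0.03, 95% interval -0.44 to 0.38), with both arms lower. For miR-221 it was -3.60 and -3.74 (difference -0.14, 95% interval -0.40 to 0.11). The smallest p in total RNA was that of miR-125a, with 5.89 and 5.27 (difference -0.63, limma adjusted p = 0.566). In pulldown it was that of miR-34c (difference -1.47, limma adjusted p = 0.993).

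The remaining lists held few calls, beside a share of 1.42% among all miRNAs in total RNA and 0% in pulldown. Of 11 reported strand or cut site targets of Dicer partners, 1 rose in total RNA (miR-34a-5p) and the median was -0.06. Of 11 entries that overlap other small RNAs, such as snoRNA-derived miR-1291, 9 were measured in total RNA, with 0 called and a median of -0.18. In pulldown 8 were measured, 5 above and 3 below 0, with 0 called and a median of 0.05. All 9 were below 0 in total RNA (8 under quantile normalization, 7 with columns scaled to the same sum). The 10 measured members of the miR-17~92 cluster and its paralogs had a median of 0.01, the 4 Drosha-independent miRNAs 0.15 and the 4 mirtrons, spliced introns that bypass Drosha, -0.17, with 0 calls in each. With columns scaled to the same sum miR-320a-3p, of the Drosha-independent list, was called higher (0.29, limma adjusted p = 0.0157). Of the pulldown controls of the protocol, miR-16-5p had log2 changes of -0.05 (total RNA) and -0.03 (pulldown). For miR-21-5p the values were -0.06 and 0.07. Scaling to the same sum put both above 0 in total RNA. miR-451a, which Ago2 cuts without Dicer, had a normalised count of 1.06 in 1 parental library of total RNA and no read in any other of the 24 libraries.

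The next comparison asks whether cells without PACT respond otherwise to long dsRNA. A miRNA counts as responding by an F test of dsGFPc and dsGFPd against mock in 1 line. In both fractions some tested miRNAs, such as miR-3614-5p, reached the 10 reads of the filter only in dsRNA libraries. Such miRNAs could be called only as rising, and their share of the counts below was not counted. In total RNA, 24 rose (5.69%) and 4 fell in the parental line (together 6.64% of 422), and 21 rose (4.98%) and 4 fell in the PACT knockout (together 5.92%). The PACT knockout counts were 19 and 10 under quantile normalization and 15 and 8 with equal column sums. In pulldown, 26 rose and 28 fell in the parental line (6.02% of 897; 30 and 17 under quantile normalization, 29 and 20 with columns scaled to the same sum), and 6 rose and 0 fell in the PACT knockout (0.669%). The difference between the lines was itself called for 0 miRNAs in total RNA (0%; 18 with an unadjusted p under 0.05) and 0 in pulldown (0%; 57), by limma. edgeR called 0 in both fractions, and DESeq2 0 and 1, miR-365b-5p.

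The miRNAs called in both lines were 18 in total RNA, which is 64.3% of the parental and 72% of the PACT knockout calls. In pulldown they were 6, which is 11.1% and 100%. The limit given above for miRNAs that passed the filter only through dsRNA libraries holds for these shared calls too. Of the 54 parental calls in pulldown, 52 had the same sign in the PACT knockout, and the share over all miRNAs was not counted. For 3 of the 54 the 95% interval of the difference between the responses lay within 1 log2 unit of 0 (16 of 28 in total RNA). For the others a like response is not shown. The parental calls in pulldown include miR-222-3p, with 136823 and 126869 in mock against 40972 to 51461 with dsRNA (log2 response -1.53, limma adjusted p = 0.0195). In the PACT knockout it had 83491 and 92549 in mock against 34295 to 84721 with dsRNA (log2 response -0.63, limma adjusted p = 0.725). The difference between these responses was 0.89, with a 95% interval of -0.09 to 1.87.

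The miRNAs miR-10399-3p, miR-3614-5p and miR-6891-5p lie within genes known to be induced by interferon, and all 3 rose with dsRNA in the pulldown of both lines. That of miR-6891-5p in the PACT knockout was not called with pseudocount 10 (log2 response 1.98 rather than 4.53, limma adjusted p = 0.126). miR-10399-3p lies within the span of ZC3HAV1, which encodes the antiviral protein ZAP. In total RNA it had 1.09 and 3.18 in parental mock libraries and 111 to 293 with dsRNA, against 0 and 0 in PACT knockout mock libraries and 139 to 425 with dsRNA. In pulldown it had 7.25 and 3.52 in parental mock and 367 to 545 with dsRNA, and 5.11 and 0.714 in PACT knockout mock and 526 to 875 with dsRNA. Every dsRNA library lay above every mock library in both lines, and in pulldown the response was called in both. In total RNA miR-10399-3p reached the 10 reads of the filter only in dsRNA libraries. It was measured there only through the libraries in which it was higher, so its total RNA values are a description. The difference between the responses in total RNA was 1.88 (95% interval 0.78 to 2.99, F test limma adjusted p = 0.9997) and rests on the mock values near 0. With pseudocount 0.1 it was 4.63 and called (limma adjusted p = 0.00108).

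miR-3614-5p, within the span of TRIM25, an activator of the RIG-I pathway, had at most 0.838 in any mock library of total RNA. In both fractions it reached the 10 reads of the filter only in dsRNA libraries, so its values are a description. With dsRNA it had 17.25 to 74.5 in parental and 26.45 to 69.15 in PACT knockout libraries. In pulldown the dsRNA libraries had 45.2 to 76.3 and 37.3 to 83.2. miR-6891-5p, within the span of HLA-B, had 30.9 to 51.8 in parental and 13.4 to 81.7 in PACT knockout pulldown with dsRNA, and at most 2.16 in mock.

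Abundant miRNAs rose as well. miR-27b-3p had 2727 and 2765 in parental mock total RNA and 5101 to 7828 with dsRNA, and 2570 and 2848 in PACT knockout mock and 4499 to 7527 with dsRNA. Its log2 responses were 1.23 and 1.14, with a difference of -0.09 (95% interval -0.56 to 0.37). In pulldown it had 1033 and 1038 in parental mock and 4282 to 5082 with dsRNA, and 1326 and 1163 in PACT knockout mock and 2514 to 5467 with dsRNA. Its log2 responses there were 2.19 and 1.61, with a difference of -0.58 (95% interval -1.30 to 0.15, F test limma adjusted p = 0.867). miR-296-3p had log2 responses of 0.78 in parental and 1.03 in PACT knockout total RNA (difference 0.25, 95% interval -0.13 to 0.63), and 1.77 and 1.82 in pulldown (difference 0.05, 95% interval -0.72 to 0.82). Both were called in each line and fraction.

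**Figure D4:**
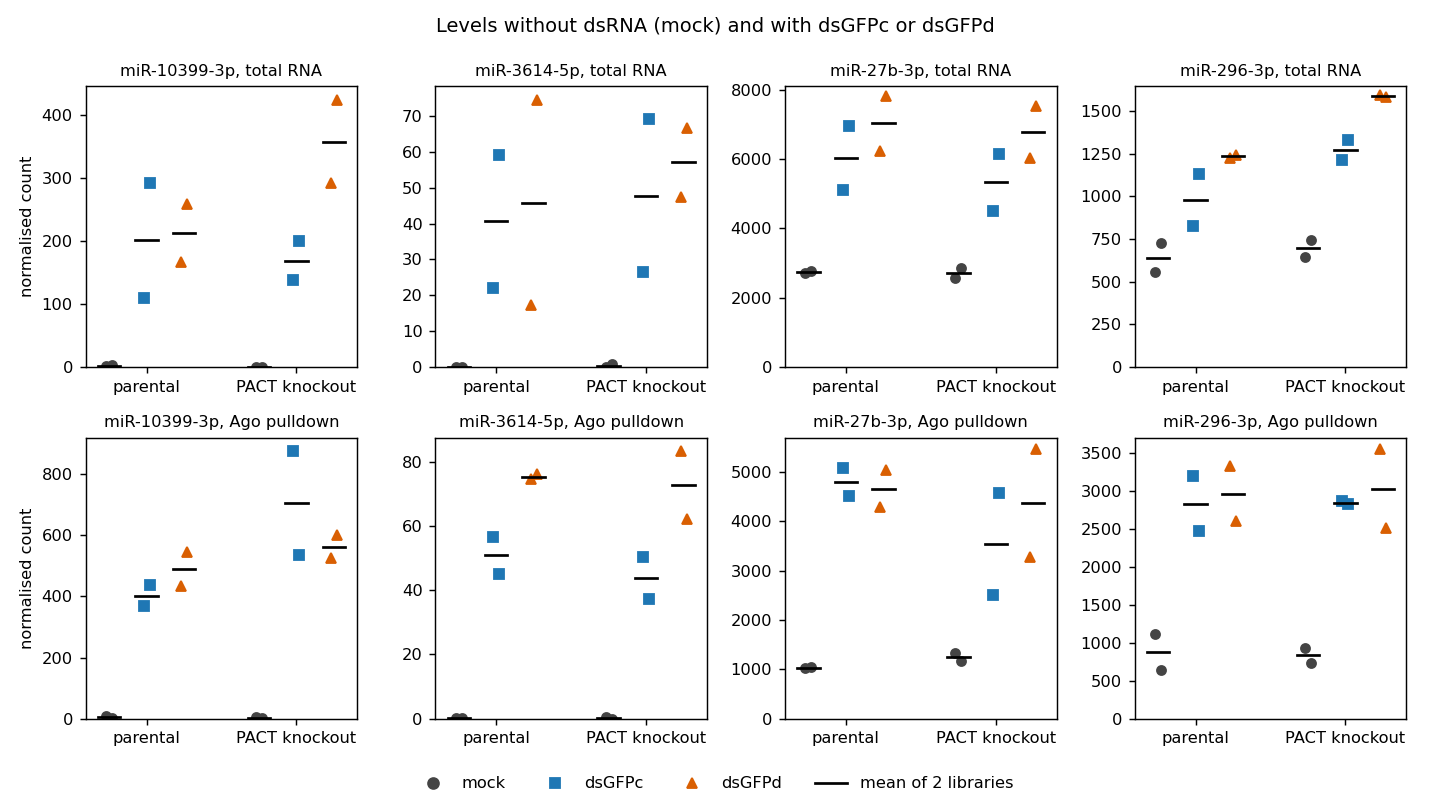
Normalised counts (vertical axes, from 0) of 4 miRNAs in parental and PACT knockout libraries with mock, dsGFPc and dsGFPd, in total RNA (upper row) and Ago pulldown (lower row), with a bar at the mean of 2 libraries. In both lines and fractions the dsRNA libraries of miR-10399-3p lie above the mock libraries, which are at 7.25 or less.

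The last comparison asks whether the difference that goes with PACT loss depends on TRBP. The double knockout was set against the TRBP knockout (PACT loss without TRBP), and this difference against that of PACT knockout and parental (PACT loss with TRBP). The 2 differences share no library. The double knockout itself differed from the TRBP knockout for 75 miRNAs upward (17.8%) and 76 downward (18%) in total RNA, and for 36 upward (4.01%) and 60 downward (6.69%) in pulldown. The effects of PACT loss differed for 42 miRNAs upward (9.95%) and 39 downward (9.24%) of 422 in total RNA (together 19.2%) and for 17 upward and 11 downward of 897 in pulldown (3.12%; 19 and 6 under quantile normalization). In total RNA all 6 miRNAs called for PACT loss were among the 81. The difference by which these 6 were chosen is itself a term of this test, with its sign reversed. Their overlap is therefore partly built in and is no independent result.

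miR-221-3p had a median of 16812 in parental, 14224 in PACT knockout, 1840 in TRBP knockout and 14320 in double knockout total RNA, so the TRBP knockout alone was low. PACT loss went with a log2 change of -0.25 with TRBP and 2.93 without TRBP, a difference of 3.18 (limma adjusted p = 3.75e-21). The differences were 3.63 for miR-221-5p, 3.88 for miR-222-5p and 3.10 for miR-222-3p. In pulldown the 4 differences were 2.15 to 3.05, all called, that of miR-222-5p in 10 of 24 fits without 1 library and not without the low-count filter (limma adjusted p = 0.0624).

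miR-34a-5p had medians of 215, 472, 52.4 and 478 in parental, PACT knockout, TRBP knockout and double knockout total RNA. It was high in both lines without PACT and lowest where only TRBP was missing. Its change with PACT loss was 1.08 with TRBP and 3.21 without, a difference of 2.13 (SE 0.34, limma adjusted p = 3.65e-05). In pulldown the difference was 3.25 (limma adjusted p = 1.24e-05).

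For miR-181c and miR-31-5p the change seen with TRBP was not seen without it. miR-181c-5p had a change of -0.64 with TRBP and 0.07 without (difference 0.71, limma adjusted p = 0.0103), and miR-181c-3p -0.61 and 0.34 (difference 0.95, limma adjusted p = 0.00115). miR-31-5p had 0.63 and 0.12 (difference -0.51, limma adjusted p = 0.0496), a call lost without the low-count filter (limma adjusted p = 0.235), with pseudocount 0.1 (limma adjusted p = 0.0519), with edgeR (adjusted p = 0.0735) and in all but 7 of 24 fits without 1 library. Set side by side against the same parental libraries, miR-31-5p was at 0.63, 0.45 and 0.57 in the PACT, TRBP and double knockout, and miR-181c-5p at -0.64, -0.70 and -0.63. These 3 comparisons share their controls, so their likeness is no independent evidence.

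For miR-10b-5p and let-7b-5p the changes had 1 sign. miR-10b-5p was at -0.23 with TRBP and -0.51 without (difference -0.28, limma adjusted p = 0.0136). That call was lost without the low-count filter (limma adjusted p = 0.0865) and under quantile normalization, where the difference was 0. let-7b-5p was at -0.26 and -0.82 in total RNA (difference -0.56, limma adjusted p = 0.00594). In pulldown let-7b-5p was at -0.79 and -0.88, a difference of -0.09 (limma adjusted p = 0.914; the sign changed in 2 of 24 fits without 1 library). miR-548f-3p was at 0.69 with TRBP and -1.38 without in pulldown, a difference of -2.07 (limma adjusted p = 2.61e-06). It had its highest levels in the TRBP knockout, with 899.5 to 1686, against 290 to 641 in parental pulldown.

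miR-224-5p and miR-452-5p, which come from introns of the GABRE gene, were high in the TRBP knockout alone among the 4 lines. miR-224-5p had 61.4 to 97.2 in TRBP knockout total RNA and at most 5.48 in any library of the other lines. miR-452-5p had 139.4 to 192 and at most 3.45. Their differences of PACT effects, -7.00 and -5.97, rest on the TRBP knockout libraries, since both were near 0 in the PACT knockout as in the parental line. In total RNA both reached the read count of the filter only in TRBP knockout libraries. They were measured there only through the line in which they were higher, so these values are a description. Both are among the downward calls of this comparison, and how many other calls share this limit was not counted.

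**Figure D5:**
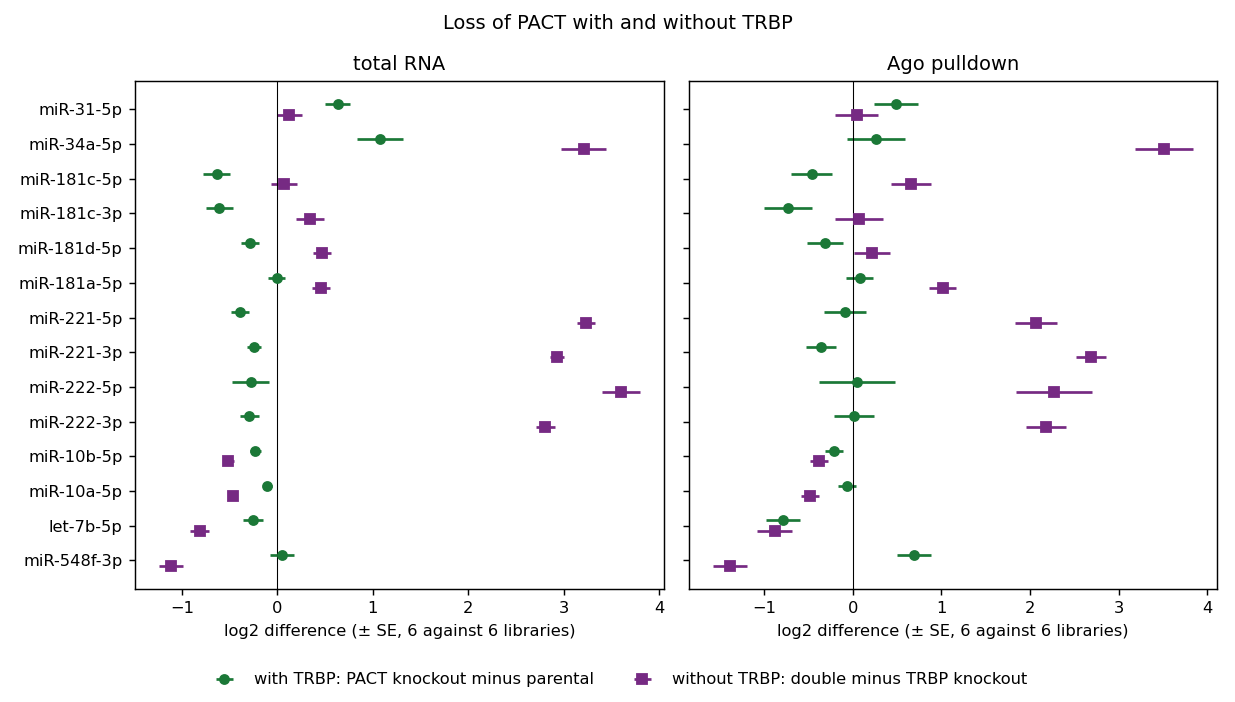
Log2 difference (horizontal axis, ± SE, 6 against 6 libraries) that goes with loss of PACT, with TRBP present (circles, PACT knockout minus parental) and without TRBP (squares, double minus TRBP knockout), in total RNA and Ago pulldown. The squares of the miR-221, miR-222 and miR-34a arms lie between 2.07 and 3.60, whereas the circles lie between -0.39 and 1.08.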

How the data were processed

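Small RNA libraries (Lexogen kit) of total RNA and of Ago pulldowns were used from experiment 1. The authors deposited 1 table of normalised counts per miRNA, a signal without raw reads. Alignment with STAR to GRCh38 is named in the submitters' processing notes, and how reads that fit several miRNAs were assigned is not given in the sources used here. Low values are whole multiples of 1 read in each column (tolerance 0.01), so reads were recovered from the deposited signal for filters and count tests. Of 2883 rows, 2652 with a mature miRNA name were kept and 231 further loci of the same names set aside. Within a fraction, miRNAs with at least 10 reads in at least 6 libraries of the 4 lines were tested. The test was limma 3.58.1 in R 4.3.3 on log2(value + 1), with Benjamini-Hochberg adjustment over all miRNAs tested and a threshold of 0.05. The PACT contrast, its difference with and without TRBP, and the arm ratios came from fits of line plus transfection (additive). Contrasts within a transfection and dsRNA responses came from a fit of the 12 groups of 2 libraries. The pulldown to total ratio was fitted over the libraries of both fractions, as an interaction of line and fraction. Total and pulldown libraries with the same labels were not paired in that fit. The PACT contrast averages the 3 transfections with equal weight. Total RNA libraries held 406531 to 868297 reads and pulldown libraries 3059773 to 6501565. Intervals are 95% intervals of the fit. Over all miRNAs tested their median half-width was 0.47 log2 units in total RNA and 0.89 in the deeper pulldown. edgeR 4.0.16 and DESeq2 1.42.0 on recovered reads, other pseudocounts, filters and scalings, the replicate number as a block, and leaving out each library were alternatives. The test was checked on simulated data with changes of 2 log2 units and the same fixed spread in both fractions. That check does not cover changes as small as those called here, nor the spread of the pulldown libraries.

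Named are miRNAs called in the PACT contrast, their other arms and families, the miRNAs of smallest p where few or none was called, and the lists given. The members and lists were chosen with earlier results of these data known. The response to dsRNA within each line was added after the data were seen. miR-19b-1-5p, miR-27b-3p and miR-296-3p were named after their values were seen. Experiments 2 and 3 were not analysed here.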

Additional observations from a re-analysis of the deposited data

Results flagged for a closer look

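For several named miRNAs the difference that goes with PACT loss was not the same with and without TRBP. This was by a test of the difference itself (limma adjusted p under 0.05). Each label stands for a single line, so a feature of the TRBP knockout line alone cannot be told apart from a dependence on TRBP. Some miRNAs were named because they were called for PACT loss, which is a term of this test. The values here are the log2 effect without TRBP (double knockout minus TRBP knockout) minus that with TRBP (PACT knockout minus parental). In total RNA the difference was 3.63 for miR-221-5p, 3.18 for miR-221-3p, 3.88 for miR-222-5p, 3.10 for miR-222-3p and 2.13 for miR-34a-5p. In the miR-181 family it was 0.71 for miR-181c-5p, 0.95 for miR-181c-3p, 0.75 for miR-181d-5p, 0.46 for miR-181a-5p and 0.38 for miR-181b-5p. It was below 0 for miR-548f-3p (-1.16), let-7b-5p (-0.56), miR-31-5p (-0.51), miR-10a-5p (-0.36) and miR-10b-5p (-0.28). Under quantile normalization 3 of these calls were lost: miR-181a-5p was at 0.17 (limma adjusted p = 0.369), miR-181b-5p at 0.09 (0.712) and miR-10b-5p at 0. Without the low-count filter those of miR-31-5p (limma adjusted p = 0.235) and miR-10b-5p (0.0865) were lost.

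In the Ago pulldown the difference was 3.25 for miR-34a-5p, 3.05 for miR-221-3p, 2.15 for miR-221-5p, 2.22 for miR-222-5p and 2.17 for miR-222-3p. It was 1.12 for miR-181c-5p, 0.94 for miR-181a-5p, 0.65 for miR-181b-5p and -2.07 for miR-548f-3p. The pulldown calls of miR-181c-5p and miR-181b-5p were made in 6 and 17 of the 24 fits that left out 1 library. Under quantile normalization both were lost (limma adjusted p = 0.0857 and 0.155). That of miR-181c-5p was also lost without the low-count filter (0.0914) and with columns scaled to the same sum (0.0586).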

How the results depend on the processing

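The count of miRNAs called between PACT knockout and parental in total RNA, 6, became 2 without a low-count filter, 10 with columns scaled to the same sum, and 2 to 6 without 1 library. Without the filter the limma adjusted p was 0.0579 for miR-34a-5p, 0.0871 for miR-181c-3p and miR-221-5p, and 0.187 for miR-10b-5p. Within mock in total RNA the count of 1 became 2 with pseudocount 0.1 and 0 without a filter, under quantile normalization and with columns scaled to the same sum. Within dsGFPc and dsGFPd in total RNA the count of 0 became 1 and 2 without a filter. In pulldown the PACT count of 0 became 3 with DESeq2 and 0 to 1 without 1 library. Within mock in pulldown it became 2 without a filter and 1 under quantile normalization and with columns scaled to the same sum. Within dsGFPc in pulldown it became 1 with a mean of at least 50 and 1 with the replicate block, and within dsGFPd 2 without a filter. The difference of the dsRNA responses, 0 called, became 1 in total RNA with pseudocount 0.1 and 0 to 1 without 1 library, and in pulldown 2 without a filter, 1 with DESeq2 and 0 to 2 without 1 library. The difference of PACT effects with and without TRBP gave 81 calls in total RNA, 49 without a filter, 94 with DESeq2, 105 with all rows of repeated loci and 62 to 81 without 1 library. In pulldown it gave 28, 16 without a filter, 43 with DESeq2, 40 with all rows of repeated loci and 15 to 29 without 1 library. The lowest of these were 15 and 16 without TRBP knockout dsGFPc or dsGFPd replicate 2, 17 without double knockout mock replicate 2, and 18 without double knockout mock replicate 1, PACT knockout mock replicate 1 or parental dsGFPd replicate 1. The parental dsRNA response in pulldown, 54, became 88 with DESeq2, and that of the PACT knockout, 6, became 10 without a filter and 13 with DESeq2. The pulldown to total ratio, 0 called, became 1 with edgeR and 1 with DESeq2 and stayed at 0 without 1 library, as did the arm ratios. Omitting the filter adds miRNAs with few reads, and the cause of the other shifts was not tested. Same-numbered libraries of parental and PACT knockout correlated in their deviations from the group means by 0.018 to 0.096 (total RNA) and -0.007 to 0.108 (pulldown), so the numbers were not taken to pair them. With the replicate block the PACT count in total RNA was 7, with miR-222-3p called (-0.30, limma adjusted p = 0.0114), the dsRNA response of the PACT knockout 38 in total RNA and 17 in pulldown.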
